A study of Mus musculus with 9 samples.

Results

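The CHD (chromodomain helicase DNA-binding) genes encode ATP-driven chromatin remodelers, and the mouse has 9 of them, Chd1 to Chd9. They were taken from the deposited gene table by symbol, and all 9 of the 9 names were found among its 24624 genes. All 9 also passed the filter on low values, a mean of at least 10 over all libraries, which left 16197 genes to test. The family was picked because Chd7 was higher in both mutant groups than in wild type, so its values against wild type are given below as a description, without a test.

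CHD proteins share a pair of chromodomains, which bind the tails of histones, and an ATPase motor of the SNF2 type, which slides or evicts nucleosomes. They fall into 3 subfamilies. CHD1 and CHD2 bind DNA and act along transcribed genes, CHD3, CHD4 and CHD5 are alternative motors of the NuRD complex (nucleosome remodeling and deacetylase), which joins remodeling to histone deacetylation, and CHD6, CHD7, CHD8 and CHD9 are large proteins linked to enhancers and promoters. In the developing brain CHD7 is known for its role in neural progenitors and for CHARGE syndrome, which follows its loss of function, and CHD8 for its association with autism.

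Poly(A)-selected RNA from the cerebral cortex of single mice at postnatal day 0 (P0) was sequenced in 9 libraries. The 3 groups were wild type (Fezf2+/+, 3 libraries), Fezf2-/- (4 libraries) and Fezf2-/-; Fezf2-EnR (2 libraries). FEZF2 is a zinc finger transcription factor of deep-layer, subcerebral projection neurons, and its null allele also marks the cells that use the Fezf2 promoter, through the reporter enzyme PLAP, an alkaline phosphatase. Fezf2-EnR is a transgene on a bacterial artificial chromosome, in which the DNA-binding domain of FEZF2, joined to the repressor domain of engrailed, is expressed under the regulatory region of Fezf2. None of the 9 libraries carries the transgene beside intact Fezf2 alleles. The sequenced tissue was whole cortex, so the values mix all of its cell types, and fewer cells of a type cannot be told apart from less RNA per cell. The labels also give 3 litters. Wild type came from litter m1 (2 libraries) and litter m2 (1 library), Fezf2-/- from m1 (2) and m3 (2), and the transgenic mice from m2 (1) and m3 (1). Libraries are named below by their label numbers, bc201 to bc209.

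Each library held between 18716575 and 25127623 recovered reads. Fezf2 itself was at 979 to 1232 in wild type and at 193 to 242 in Fezf2-/-, and at 907 and 1000.9 in Fezf2-/-; Fezf2-EnR, where reads of the transgene count as Fezf2. Xist, which is transcribed from the inactive X chromosome of females, was at 10771 in wild-type bc201 and at 12203 and 7895 in the Fezf2-/-; Fezf2-EnR libraries, and at most at 58.9 in the other libraries, which include all 4 Fezf2-/- libraries. The summed Y-linked genes showed the opposite, with at most 4.22 in those 3 libraries and 2595 to 3440 in the others. Sex and genotype therefore cannot be told apart between Fezf2-/- and Fezf2-/-; Fezf2-EnR, while wild type held both patterns. Choroid plexus genes summed to at most 13.1 in any library.

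In the unit used here a value is the number of reads of a gene divided by the size factor of its library, which the authors had applied. Such values can be compared between libraries for one gene, and between genes only after division by transcript length. By the lengths of GENCODE M21 (GRCm38), Chd4 had the shortest annotated main transcript of the family, 6.70 kb, and Chd9 the longest, 12.01 kb. The median of the 9 was 9.09 kb, against 2.99 kb for all tested genes, and 90.5% of tested genes had a transcript shorter than that of Chd4. The proteins are long as well, from 1711 codons in Chd1 to 2986 codons in Chd7, so that 87.7% of the 10.2 kb of the Chd7 transcript is coding sequence. Chd7 lies on chromosome 4 from 8690406 to 8867659 on the plus strand, with 38 exons over 177 kb. Chd5 lies on the same chromosome, from 152338651 to 152390194.

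Per kb of transcript, the NuRD motors were the most abundant members in wild type. Chd3 was at 2925 ± 113 per kb (SD, n = 3), Chd4 at 915 ± 115 and Chd5 at 592 ± 44.5, and these 3 levels did not overlap. Chd8 followed at 470 ± 78.3 per kb, the only member of its subfamily near that range. Chd6 (170 ± 10.8) and Chd2 (149 ± 11.4) overlapped between libraries, as did Chd9 (117 ± 13.0) and Chd1 (100.1 ± 12.01), although the first of each pair was higher than the second within each of the 9 libraries. Chd7 was the lowest member, at 39.1 ± 1.43 per kb, below Chd1 in every library. It was higher than 26.2% of tested genes by this measure, and Chd3 higher than 97.9%. Chd7 made up 0.703 to 0.735% of the summed per-kb level of the family in wild type, 0.880 to 1.05% in Fezf2-/- and 1.09 to 1.12% in Fezf2-/-; Fezf2-EnR.

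**Figure D1:**
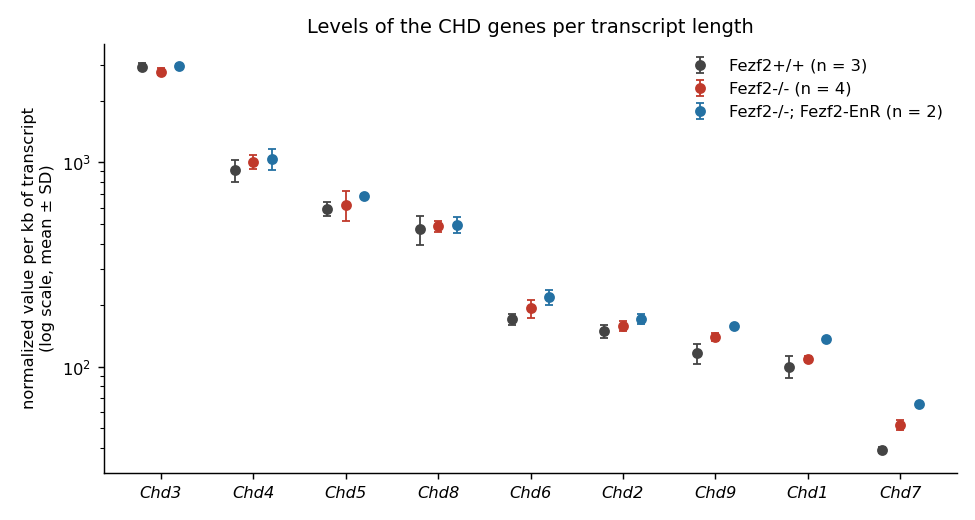
Mean normalized value per kb of transcript of each CHD gene (log axis, points; bars, SD over libraries) in wild type, Fezf2-/- and Fezf2-/-; Fezf2-EnR. Chd3 is highest, at 2925 per kb in wild type, and Chd7 lowest, at 39.1, and the order of the genes by their means is the same in the 3 groups.

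Chd7 was lowest in wild type, higher in Fezf2-/- and highest in Fezf2-/-; Fezf2-EnR. In wild type its normalized values were 416, 388 and 393, in Fezf2-/- they were 572, 516, 498 and 534, and in Fezf2-/-; Fezf2-EnR 670.1 and 669. No library of one genotype overlapped another genotype. The mean was 399 ± 14.6 (SD, n = 3) in wild type, 530.3 ± 31.6 (n = 4) in Fezf2-/- and 669 ± 0.955 (n = 2) in Fezf2-/-; Fezf2-EnR. These values correspond to a log2 difference of 0.41 ± 0.07 (SE, 1.33-fold) between Fezf2-/- and wild type and of 0.75 ± 0.09 (1.68-fold) between Fezf2-/-; Fezf2-EnR and wild type. Since these differences chose the family, they carry no test here. Chd7 also rests on the fewest reads of the family, from 369 to 673 per library, at which counting error alone is at most 5.21% of a value.

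Chd9, a near relative of Chd7 and the longest transcript of the family, had the same order without overlap at smaller steps. The gene spans 226 kb on the plus strand of chromosome 8, from 90828352 to 91054516, and overlaps an exon of Gm45641 on the other strand. It was at 1433, 1229 and 1537 in wild type, at 1711, 1584, 1651 and 1768 in Fezf2-/- and at 1892 and 1889 in Fezf2-/-; Fezf2-EnR. Its log2 differences from wild type were 0.27 ± 0.08 and 0.44 ± 0.09. Chd7 and Chd9 were the 2 of 9 members with this order, which 0.309% of all tested genes (50 genes) showed, and the rule that chose the family fixes this order in part.

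Chd6, on chromosome 2 from 160946978 to 161109075, was at 1855, 1658 and 1854 in wild type, at 1948, 1872, 1969 and 2334 in Fezf2-/- and at 2156 and 2441 in Fezf2-/-; Fezf2-EnR. Both mutant groups lay above wild type, by 0.18 ± 0.09 and 0.36 ± 0.10 on the log2 scale, and overlapped each other through Fezf2-/- bc207. Chd8, on chromosome 14 from 52198151 to 52257780, whose protein binds beta-catenin, had no such order. It ranged from 3338 to 4670 in wild type, from 3794 to 4431 in Fezf2-/- and was at 3925 and 4454 in Fezf2-/-; Fezf2-EnR, with log2 differences from wild type of 0.06 ± 0.10 and 0.08 ± 0.12. The 4 members of this subfamily therefore ranged from Chd8, within its SE of 0, to Chd7.

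Chd1, which binds methylated histone H3 through its chromodomains, lies on chromosome 17 from 15704967 to 15772610 and overlaps no other annotated exon. Its values were 798, 694 and 884 in wild type, 849, 874, 829 and 902 in Fezf2-/-, and 1094 and 1078 in Fezf2-/-; Fezf2-EnR. Wild type and Fezf2-/- overlapped (log2 difference 0.13 ± 0.08), and both Fezf2-/-; Fezf2-EnR libraries lay above all 7 others (0.46 ± 0.10 against wild type). Chd2 (chromosome 7, 73426638 to 73541830), a gene of epileptic encephalopathy, ranged from 1279 to 1473 in wild type and from 1348 to 1533 in Fezf2-/-, and was at 1498 and 1611 in Fezf2-/-; Fezf2-EnR. Its log2 differences from wild type were 0.09 ± 0.07 and 0.20 ± 0.09. Its exons overlap annotated exons of 1810026B05Rik on the same strand and of Gm44686 on the other. The counting of shared reads is not given in the sources used here, so the level of Chd2 is uncertain to that extent. The same limit holds for Chd9, for Chd4 (Mir7045, same strand), and for Chd5 (Gm13645) and Chd8 (Gm26590), both with the overlap on the other strand.

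The NuRD motors had small differences beside their spread. Chd3, on chromosome 11 from 69343273 to 69369406, was at 21949, 21417 and 20340.1 in wild type, at 20405, 20013, 19052 and 20966 in Fezf2-/-, and at 21839 and 21194 in Fezf2-/-; Fezf2-EnR, and was the only member with a lower mean in Fezf2-/- than in wild type (log2 difference -0.08 ± 0.05). Chd4 (chromosome 6, 125095981 to 125130591), known as a motor of neural progenitors, ranged from 5403 to 6936 in wild type, from 5922 to 7078 in Fezf2-/- and was at 6345 and 7545 in Fezf2-/-; Fezf2-EnR, so that all 3 groups overlapped. Chd5, known from neurons, ranged from 5261 to 6080 in wild type and was at 5321, 5555, 5298 and 7325 in Fezf2-/-, and at 6586 and 6416 in Fezf2-/-; Fezf2-EnR. The highest Chd5 value of the series was that of Fezf2-/- bc207, and the other 3 Fezf2-/- libraries lay within 5298 to 5555. The log2 differences from wild type were 0.13 ± 0.10 and 0.18 ± 0.12 for Chd4, and 0.06 ± 0.11 and 0.21 ± 0.13 for Chd5.

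**Figure D2:**
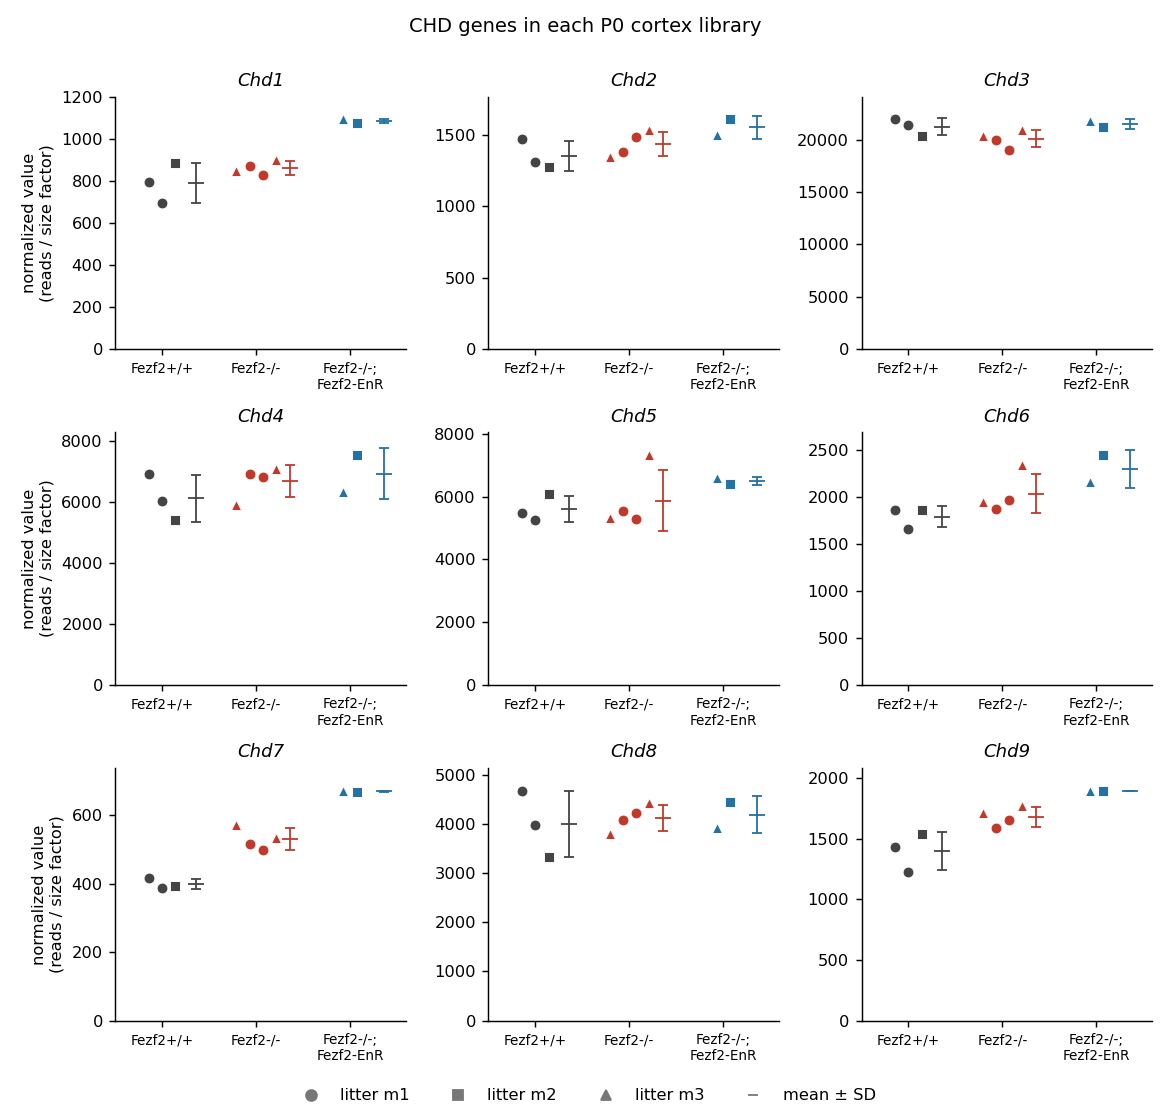
Normalized value (reads divided by size factor) of each CHD gene in each of the 9 libraries, by genotype, with the litter as the symbol and the mean ± SD beside each group. For Chd7 and Chd9 the values step up from wild type over Fezf2-/- to Fezf2-/-; Fezf2-EnR without overlap, and both Fezf2-/-; Fezf2-EnR libraries stand above the rest for Chd1.

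Over the family, 8 of 9 members had a higher mean in Fezf2-/- than in wild type and 9 of 9 in Fezf2-/-; Fezf2-EnR than in wild type. The median log2 difference was 0.13 in the first comparison and 0.21 in the second, beside 0.00 and -0.00 over all tested genes. All Fezf2-/- libraries lay above all wild-type libraries for 3 of 9 members (Chd6, Chd7 and Chd9), beside 6.53% of tested genes. All Fezf2-/-; Fezf2-EnR libraries lay above wild type for 6 of 9 (Chd1, Chd2, Chd5, Chd6, Chd7 and Chd9), beside 17.3%. Both comparisons share the wild-type libraries and were used to choose the family.

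The comparison of Fezf2-/-; Fezf2-EnR with Fezf2-/- asks what the repressor fusion adds on the null background, and it is the one comparison that did not choose the family, although its libraries also enter the other comparisons. None of the 9 CHD genes passed an adjusted p of 0.05 in limma, beside 0.766% of all tested genes. At an unadjusted p under 0.05 there were 2 of 9, Chd7 and Chd1, beside 16.9% of tested genes. All 9 means were higher in Fezf2-/-; Fezf2-EnR, with a median log2 difference of 0.16 beside 0.00 over all tested genes.

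Chd7 was higher in Fezf2-/-; Fezf2-EnR by 0.34 ± 0.08 (log2, SE; 95% interval 0.16 to 0.52; 1.26-fold), with an adjusted p of 0.105 in limma. Chd1 was higher by 0.33 ± 0.09 (interval 0.13 to 0.54; 1.26-fold), with an adjusted p of 0.142. For both genes each of the 2 libraries exceeded all 4 Fezf2-/- libraries, as was also the case for Chd3 and Chd9, which makes 4 of 9 members beside 12% of tested genes. The other members had adjusted p values from 0.344 to 0.951 in limma, and their intervals all include 0, from -0.02 to 0.37 for Chd9 to -0.24 to 0.28 for Chd8. An exact two-sided permutation test of 2 against 4 libraries has 15 divisions and cannot go below p = 0.133, which Chd1, Chd3, Chd7 and Chd9 reached.

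The count tests on the recovered reads differed on these 2 genes. DESeq2 called 2 of 9 members, Chd7 (adjusted p = 0.0310) and Chd1 (adjusted p = 0.0440), where it called 2.8% of all genes, and edgeR called none, where it called 0.696%. Over all alternative settings the log2 difference of Chd7 ranged from 0.23 to 0.37, and its adjusted p from 0.0310 to 0.603. That of Chd1 ranged from 0.16 to 0.35, with adjusted p from 0.0440 to 0.680.

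**Figure D3:**
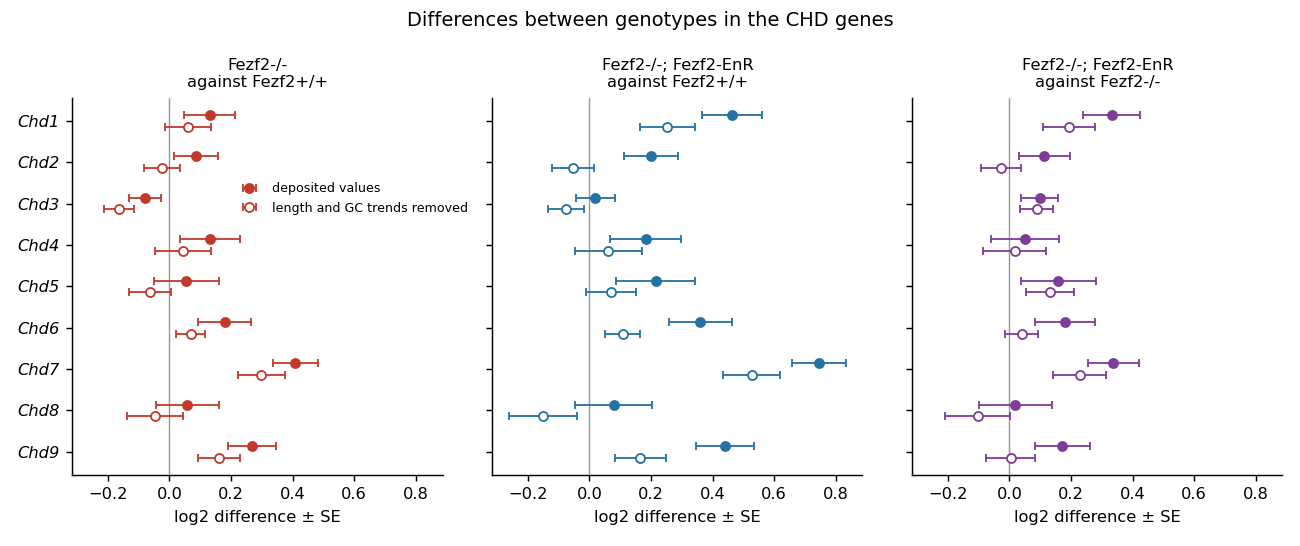
Log2 difference (points; bars, SE of the limma fit) of each CHD gene in the 3 comparisons of genotypes, from the deposited values (filled) and after the trends with transcript length and GC content were taken out of each library (open). Chd7 has the highest filled point in each panel, 0.41, 0.75 and 0.34, and open points at 0.30, 0.53 and 0.23.

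CHD transcripts are long, and long transcripts as a class were higher in the mutant libraries. Over the 376 tested genes with a transcript of 10 kb or more, the median log2 difference was 0.13 in Fezf2-/- against wild type, 0.24 in Fezf2-/-; Fezf2-EnR against wild type and 0.11 in Fezf2-/-; Fezf2-EnR against Fezf2-/-. Over the 1818 genes under 1 kb it was -0.07, -0.09 and -0.01. Within the range of lengths that the family spans, 1340 genes had medians of 0.10, 0.19 and 0.09, beside 0.13, 0.21 and 0.16 for the 9 CHD genes.

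Chd7 stood above most genes of its own length, which the choice of the family fixes in part in both comparisons with wild type. In the class of 10 kb or more, 28 of 376 genes had a larger log2 difference than Chd7 in Fezf2-/- against wild type, 9 in Fezf2-/-; Fezf2-EnR against wild type and 50 in Fezf2-/-; Fezf2-EnR against Fezf2-/-. Chd1, in the class of 6 to 8 kb, was exceeded by 123 of 1196 genes in the last of these comparisons. Chd8, Chd3 and Chd2 lay below the median of their length class in both comparisons with wild type, and Chd5 in Fezf2-/- against wild type. In that comparison Chd2 and Chd5 were at 0.09 and 0.06, beside 0.10 over the 492 genes of 8 to 10 kb. In Fezf2-/-; Fezf2-EnR against wild type they were close to the median of this class, at 0.20 and 0.21 beside 0.21.

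**Figure D4:**
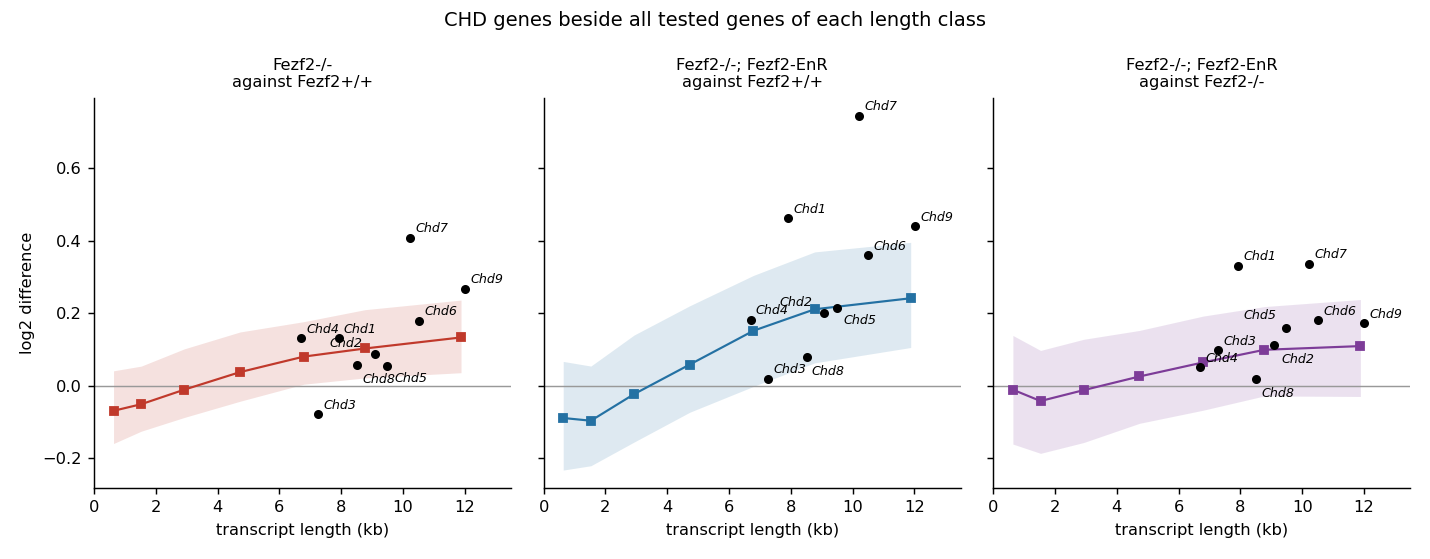
Median log2 difference of all tested genes in each class of transcript length (squares, placed at the median length of the class; band, first to last quartile bounds, 25% to 75%) and the 9 CHD genes (black points) in the 3 comparisons. From the class of 1 to 2 kb on the medians climb with length, to 0.13, 0.24 and 0.11 in the class of 10 kb or more, and Chd7 lies above the band in each panel. Both comparisons with wild type were used to choose the family.

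GC content varied with the differences too. Among genes in the length range of the family, those under 40% GC had a median log2 difference of 0.18 in Fezf2-/-; Fezf2-EnR against Fezf2-/-, and those of 55% or more -0.04. The corresponding medians were 0.30 and 0.06 in Fezf2-/-; Fezf2-EnR against wild type, and 0.11 and 0.10 in Fezf2-/- against wild type, where no such slope was seen. Chd1 has the lowest GC content of the family, 43.2%, and Chd5 the highest, 57.4%, with Chd7 at 51.4%.

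Both trends were then taken out of each library by subtracting the median deviation of genes with similar transcript length, followed by that of genes with similar GC content. After this step the median of the 9 members went to 0.04, 0.07 and 0.04. Chd7 remained the highest member, at 0.30 ± 0.08, 0.53 ± 0.09 and 0.23 ± 0.09, and its 3 genotypes still did not overlap. The values against wild type belong to the comparisons that chose the family, and the last value had an adjusted p of 0.249 in limma. Chd9 went to 0.16 ± 0.07, 0.17 ± 0.08 and 0.00 ± 0.08, and its groups then overlapped in every comparison. Chd1 went to 0.06 ± 0.07, 0.25 ± 0.09 and 0.19 ± 0.08, with the 2 Fezf2-/-; Fezf2-EnR libraries still above all others. Chd3 went to -0.16 ± 0.05 in Fezf2-/- against wild type, where all 4 Fezf2-/- libraries then lay below wild type.

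The length trend was uneven among the Fezf2-/- libraries. The median deviation from the wild-type mean of transcripts of 10 kb or more, minus that of transcripts under 1 kb, was -0.08 to 0.05 in wild type, 0.09 to 0.13 in Fezf2-/- bc204, bc205 and bc206, 0.44 in bc207 and 0.32 and 0.34 in the Fezf2-/-; Fezf2-EnR libraries. Fezf2-/- bc207 was also the highest Fezf2-/- library for Chd1, Chd2, Chd3, Chd4, Chd5, Chd6, Chd8 and Chd9, but not for Chd7, which was highest in bc204, at 0.52 above the wild-type mean with a length trend of 0.13. In bc207 Chd7 was at 0.42, within the 0.32 to 0.52 of the other 3. With the length and GC trends removed, bc207 was the lowest Fezf2-/- library for Chd7. Its log2 value was then 8.91, against 8.98 to 9.20 in the other 3. The part of the length trend in the Chd7 values was not tested. Without bc207 the Chd7 difference between Fezf2-/- and wild type was 0.40, and over all libraries left out in turn it ranged from 0.37 to 0.44.

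**Figure D5:**
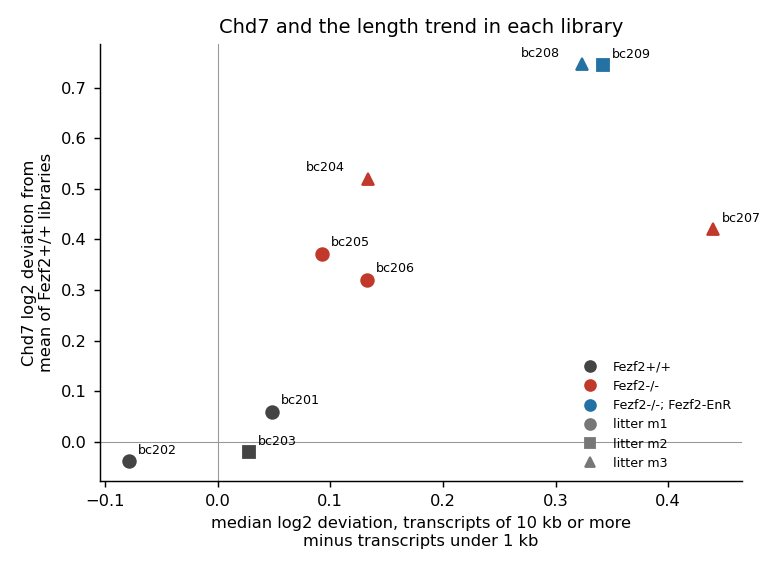
Chd7 in each library as its log2 deviation from the wild-type mean (vertical axis) against the size of the length trend in that library (horizontal axis, median log2 deviation of transcripts of 10 kb or more minus that of transcripts under 1 kb), with genotype as colour and litter as symbol. The 4 Fezf2-/- libraries lie between 0.32 and 0.52 for Chd7, and their length trend runs from 0.09 to 0.44. The part of the trend in the Chd7 values was not tested.

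Litter and genotype were partly crossed. In litter m1, with 2 wild-type and 2 Fezf2-/- libraries, Chd7 was 0.34 higher in Fezf2-/- on the log2 scale and did not overlap, and Chd9 was 0.29 higher. In litter m2, with 1 library each, Chd7 was 0.76 higher in Fezf2-/-; Fezf2-EnR than in wild type and Chd1 0.29 higher. In litter m3, Chd7 in the 1 Fezf2-/-; Fezf2-EnR library was 0.28 above the mean of the 2 Fezf2-/- libraries, and Chd1 0.32. In m2 Xist was at 7895 in the transgenic and 8.43 in the wild-type library, and in m3 at 12203 against at most 1.66. Sex therefore cannot be told apart from genotype within m2 or m3. Between litters of the same genotype, the Fezf2-/- libraries of m3 were 0.12 above those of m1 for Chd7. With litter as a block in the fit, the Chd7 differences were 0.37 ± 0.08, 0.70 ± 0.09 and 0.33 ± 0.09, the last with an adjusted p of 0.170 in limma. Chd4 and Chd8, which overlapped between all groups, were 0.48 and 0.42 higher in the transgenic library within m2, beside 0.18 and 0.08 over all libraries, and differed by -0.03 and -0.06 within m3.

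The summed markers of some cell types had, like Chd7, their highest mean in Fezf2-/-; Fezf2-EnR. The 9 radial glia markers summed to 14943 to 16317 in wild type, 16047 to 19012 in Fezf2-/- and 19103 to 19334 in Fezf2-/-; Fezf2-EnR, with 8 of 9 higher in Fezf2-/- than in wild type and 8 of 9 higher in Fezf2-/-; Fezf2-EnR. The 9 markers of proliferating cells summed to 2713 to 3478, 3103 to 4120 and 3666 to 4644, and overlapped between groups. The 5 intermediate progenitor markers summed to 318 to 405 in wild type, 269 to 439 in Fezf2-/- and 639 to 925 in Fezf2-/-; Fezf2-EnR. Of the 4 intermediate progenitor markers tested, 1 passed an adjusted p of 0.05 in limma, in Fezf2-/-; Fezf2-EnR against Fezf2-/-, beside 0.766% of all tested genes. It was Eomes, a transcription factor of intermediate progenitors named here after its values were seen, at 136 ± 44.99 in wild type, 101.4 ± 28.8 in Fezf2-/- and 383 ± 174 in Fezf2-/-; Fezf2-EnR (log2 difference 1.88 ± 0.36, adjusted p = 0.0426 in limma). The unadjusted p was under 0.05 for 3 of the 4 in that comparison, all higher, beside 16.9% of all tested genes. The median log2 difference of the 4 was 0.98 beside 0.09 for the radial glia and 0.39 for the proliferation markers. Higher there were 4 of 4, 6 of 9 and 9 of 9. Both edgeR and DESeq2 called 2 of the 4 there, beside 0.696% and 2.8% of all genes. In Fezf2-/- against wild type the 4 intermediate progenitor markers had a median of -0.24, with 1 higher, the other direction from Chd7. None of the radial glia or proliferation markers passed an adjusted p of 0.05 in limma in any comparison. The unadjusted p was under 0.05 for 3, 6 and 1 of the 9 radial glia markers over the 3 comparisons. For the 9 proliferation markers the counts were 0, 3 and 3, and over all tested genes the shares were 10.8%, 19.3% and 16.9%. By adjusted p, edgeR also called none of them. DESeq2 called 2 of each list in Fezf2-/-; Fezf2-EnR against wild type, beside 3.94% of all genes, and none in the other comparisons.

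The 6 markers of oligodendrocyte precursors, another cell type in which Chd7 is known to act, summed to 5570 to 5919 in wild type, 6523 to 6948 in Fezf2-/- and 6208 to 6468 in Fezf2-/-; Fezf2-EnR. The 8 interneuron markers did not follow the order of Chd7, at 8333 to 8805, 11023 to 11510 and 8575 to 9434. Nor did the 6 astrocyte markers, at 7370 to 7862, 7823 to 8924 and 6662 to 9172. Over the 3 comparisons 6, 3 and 0 of the 6 were higher, with median log2 differences of 0.21, -0.02 and -0.15. Lists of glutamatergic, striatal and thalamic neurons, microglia, endothelium, pericytes and meningeal fibroblasts are not described here. The 5 red blood cell markers went the other way from Chd7 in the transgenic group, with sums of 5697 to 8386 in wild type, 5107 to 8883 in Fezf2-/- and 4202 to 4554 in Fezf2-/-; Fezf2-EnR. All 5 were lower at an unadjusted p under 0.05 in limma in both comparisons of that group, beside 19.3% and 16.9% of all tested genes in either direction. The median log2 differences were -0.57 against wild type and -0.64 against Fezf2-/-, and none passed an adjusted p of 0.05. By adjusted p, edgeR called none of the 5, and DESeq2 called 1, against Fezf2-/-, beside 2.8% of all genes. No radial glia, proliferation, oligodendrocyte precursor, interneuron or red blood cell marker was at 0 in any library, and 1 intermediate progenitor marker was at 0 in at least 1 library. The part of these cell types in the Chd7 values was not tested.

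The other remodelers and their partners were read from 8 lists, of which 118 genes were tested. None passed an adjusted p of 0.05 in limma in either comparison with wild type, where 0.858% and 0.117% of all tested genes did, and 1, Kdm6a, did in Fezf2-/-; Fezf2-EnR against Fezf2-/-. The unadjusted p was under 0.05 for 24, 51 and 28 of the 118, beside 10.8%, 19.3% and 16.9% of all tested genes. By adjusted p, edgeR called 0, 0 and 1 of them, beside 0.875%, 0.0925% and 0.696% of all genes. DESeq2 called 5, 29 and 5, beside 1.94%, 3.94% and 2.8%. At an unadjusted p under 0.05 the largest share was that of the long-transcript histone-modifying enzymes, with 15 of 19 higher in Fezf2-/-; Fezf2-EnR against wild type, beside 10.5% of all tested genes.

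Among 12 NuRD subunits beside the CHD motors, the median log2 differences were -0.04, 0.03 and 0.07 in the order of comparisons used above, and 3, 8 and 9 of the 12 were higher. The largest was Mbd2, a reader of methylated DNA, at 284 ± 29.0 in wild type and 355 ± 20.9 in Fezf2-/-; Fezf2-EnR (0.33, adjusted p = 0.216 in limma). The 26 BAF (SWI/SNF) subunits had medians of -0.02, 0.03 and 0.09. Brd7, a bromodomain subunit, was 0.33 lower on the log2 scale in Fezf2-/- than in wild type, at 1329 ± 132 and 1660 ± 69.8 (limma, adjusted p = 0.120). The 16 subunits of INO80, SRCAP and TIP60 remodelers had medians of -0.06, 0.01 and 0.08. Ruvbl1, an AAA+ ATPase shared by these complexes, was at 927 ± 26.6 in wild type, 740 ± 31.7 in Fezf2-/- and 964 ± 104 in Fezf2-/-; Fezf2-EnR, with adjusted p values of 0.0797 for Fezf2-/- against wild type and 0.0719 for Fezf2-/-; Fezf2-EnR against Fezf2-/- in limma, the latter 0.0436 with the trends removed.

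The 3 lists with the longest transcripts had the highest medians of the 8 in both comparisons of Fezf2-/-; Fezf2-EnR. In Fezf2-/- against wild type the highest was that of the CHD7 partners, with a median length of 2.78 kb. With the trends removed the CHD7 partners were at 0.19, 0.16 and 0.18 over the 3 comparisons. In Fezf2-/-; Fezf2-EnR against Fezf2-/- the NuRD, BAF and INO80 lists were then at 0.09, 0.11 and 0.11. The 11 ISWI remodelers and partners (median length 6.49 kb) were at 0.11, 0.34 and 0.27, and at 0.04, 0.15 and 0.12 with the trends removed. Baz1a, the ACF1 partner of ISWI, was at 84.8 ± 7.07 in wild type and 147 ± 8.20 in Fezf2-/-; Fezf2-EnR (log2 difference 0.79, adjusted p = 0.134 in limma). The 14 other SNF2 ATPases (median length 5.06 kb) were at 0.11, 0.30 and 0.17, and at 0.03, 0.18 and 0.15 with the trends removed. Hells, a helicase needed for DNA methylation, was at 132 ± 20.2 in wild type and 206 ± 20.9 in Fezf2-/-; Fezf2-EnR (0.65, adjusted p = 0.136 in limma). The 19 histone-modifying enzymes with long transcripts (median 8.86 kb) were at 0.15, 0.34 and 0.19, and at 0.04, 0.14 and 0.11 with the trends removed. Ep300, a histone acetyltransferase, was at 1670.3 ± 113, 2089 ± 212 and 2451 ± 74.9 over the 3 genotypes (0.32 in Fezf2-/- against wild type, adjusted p = 0.148 in limma). Kdm6a, an X-linked histone demethylase known to be expressed from both X chromosomes in females, was at 573 ± 74.2 in wild type, 571 ± 42.4 in Fezf2-/- and 905 ± 56.5 in Fezf2-/-; Fezf2-EnR (0.67 ± 0.11 against Fezf2-/-, adjusted p = 0.0268 in limma), and Xist differed between the same groups.

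Of 12 genes fixed as partners of CHD7 or reported downstream of it, 9 were tested, with medians of 0.18, 0.14 and 0.12. Sox10, a transcription factor of the oligodendrocyte lineage, was at 280 ± 14.4 in wild type, 355 ± 14.6 in Fezf2-/- and 288 ± 16.4 in Fezf2-/-; Fezf2-EnR (0.34 in Fezf2-/- against wild type, adjusted p = 0.110 in limma), an order unlike that of Chd7. Sox9, a radial glia and astrocyte factor, was at 480 ± 25.9, 581 ± 66.3 and 714 ± 22.6 (0.57 in Fezf2-/-; Fezf2-EnR against wild type, adjusted p = 0.0963 in limma). Sox11, a factor of newborn neurons, was at 20214 ± 1260, 21434 ± 839 and 29003 ± 6714, with the widest spread in the last group. The 11 tested Wnt/beta-catenin response genes, listed because CHD8 binds beta-catenin, had medians of 0.03, 0.00 and 0.05, with 6 of 11 higher in each comparison. Axin2, a feedback inhibitor of the pathway, was at 401 ± 52.0 in wild type and 490 ± 2.72 in Fezf2-/-; Fezf2-EnR (0.30, adjusted p = 0.208 in limma). Sp5 went the other way at low values, with 11.3 ± 0.682, 21.8 ± 11.3 and 7.71 ± 3.18 over the 3 genotypes. Its log2 difference was -1.33 in Fezf2-/-; Fezf2-EnR against Fezf2-/- (adjusted p = 0.157 in limma).

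By Pearson's r of log2 values over the 9 libraries, the 5 genes most like Chd7 among 12962 were Mcm4 (0.97), Megf10 (0.96), Ubn1 (0.96), Utrn (0.96) and Qk (0.96). Mcm4 is a subunit of the replicative helicase, and its means were 381, 437 and 515 over the 3 genotypes. Megf10 is a receptor of astrocytes, at 180, 225 and 281. Ubn1 belongs to the HIRA histone chaperone, Utrn is the homologue of dystrophin, and Qk is an RNA-binding protein of glia. Among the CHD genes Chd9 came closest to Chd7 (r = 0.90, rank 59), followed by Chd1 (0.83) and Chd6 (0.80), and Chd3 was farthest (0.06). These values describe 9 libraries that fall into 3 genotypes and differ in the length trend.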

How the data were processed

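Cortical RNA of 9 P0 mice was sequenced by the authors as paired-end reads from poly(A)-selected TruSeq libraries. The submitters' notes name Bowtie, STAR, DESeq and the build mm10. The counting tool, its use of strand and the annotation release are not given in the sources used here. The values the authors deposited are a signal per gene, namely its read count over the size factor of the library, rounded to 2 decimals, for 24624 genes.

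Values from 20 to 200 were whole multiples of the worth of 1 read (tolerance 0.02) in 100% of cases in every library, so that read counts could be recovered. In bc204 and bc208 the worth of 1 read is close to 1 (1.00 and 0.996), so only the other 7 columns met the stricter rule for whole reads. Recovered reads served for depth and for the edgeR and DESeq2 alternatives, which called 142 and 314 genes in Fezf2-/- against wild type, 15 and 640 in Fezf2-/-; Fezf2-EnR against wild type, and 113 and 454 in Fezf2-/-; Fezf2-EnR against Fezf2-/-. Counting errors cover counting only.

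The main test was limma 3.58.1 (R 4.3.3) on log2(value + 1), over 16197 genes with a mean of at least 10, with all 9 libraries in one fit, 1 coefficient per genotype, no covariate and Benjamini-Hochberg adjustment over all genes, calling genes at an adjusted p under 0.05. It called 139, 19 and 124 genes in the 3 comparisons. A fold is the antilog of a difference on the log2(value + 1) scale. Each library came from 1 mouse, and comparisons of the 2 Fezf2-/-; Fezf2-EnR libraries use the spread pooled over the 3 groups. The fits were also run on simulated reads, which held no litter, sex, length or GC trend and so do not speak to those. Alternatives were other pseudocounts and filters, rescaling by TMM or by median ratios, a fit of just the 2 groups in question, a litter block, single litters, each library left out, edgeR 4.0.16 and DESeq2 1.42.0, and removal of length and GC trends. edgeR with the litter block was added after the data had been seen.

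Positions, lengths (longest coding transcript) and GC content came from GENCODE M21 (GRCm38, the assembly of mm10), which matched 24595 of the 24624 identifiers. 14 symbols occur more than once in the table, none of them a CHD gene.

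The members, the gene lists and the tests were chosen with earlier results of these data known. The text names the 9 CHD genes, the called genes of each pathway list (or, where none was called, genes among the 2 with the largest difference in a comparison) and the 5 genes with the highest r with Chd7 among genes with a mean of at least 50. Markers of cell types are given by list, and Eomes was named after its values were seen. Tables and figures were made with Python 3.11.15, pandas 2.3.3, SciPy 1.17.1 and matplotlib 3.10.9.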

Additional observations from a re-analysis of the deposited data

Results flagged for a closer look

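A single library stood far from the others of its group, by Dixon's criterion in the 4 Fezf2-/- libraries, for 3 of the 44 genes looked at, and chance flags about 1 in 20 groups (5%). Chd5 was at 7325 in Fezf2-/- bc207, against 5298 to 5555 in the other 3. Ino80d, an INO80 subunit with a transcript of 13.7 kb, was at 1079.8 in the same library, against a median of 882 in the group. Sp5, a Wnt response gene, was at 38.6 in Fezf2-/- bc206, against a group median of 16.8.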

How the results depend on the processing

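The count of CHD genes called between Fezf2-/-; Fezf2-EnR and Fezf2-/- stayed at 0 in 21 of 22 alternatives and was 2 with DESeq2. Counts over all genes in the 3 comparisons (139, 19 and 124 in the order of the report) became 314, 640 and 454 with DESeq2 and 220, 11 and 67 with only the 2 groups compared. The second became 10 at a mean of at least 50. The labels repeat no replicate number between groups, so litter served as the replicate block: with it the counts were 125, 32 and 88, with edgeR and the block 138, 34 and 92, and in litter m1 alone the first was 239. Leaving out each library in turn gave 66 (without wild-type bc201) to 218 (without Fezf2-/-; Fezf2-EnR bc209), 8 (without bc209) to 492 (without bc208) and 21 (without bc209) to 1085 (without bc208); the count in Fezf2-/-; Fezf2-EnR against wild type was also 180 without wild-type bc203, and without either transgenic library that group rests on 1 library assumed to vary like the others.

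Of the 621 alternative values of single CHD genes, 582 stayed within the replicate spread or, where tested, kept their direction and their side of the threshold. Changes of sign arose also in the tested comparison, Fezf2-/-; Fezf2-EnR against Fezf2-/-. With the trends removed Chd2 was at -0.0283 and Chd8 at -0.103, and with the block as well Chd6 was at -0.000318 and Chd9 at -0.0382. Leaving out 1 library gave -0.0738 to 0.176 for Chd4 and -0.0712 to 0.111 for Chd8. Chd7 and Chd1 passed the threshold with DESeq2 only. The cause of these changes was not tested. With 2 transgenic libraries, and Xist high in both and low in all 4 Fezf2-/- libraries, sex cannot be told apart from the transgene.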
